A study of Mus musculus with 16 samples.

Results

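The genes described here encode the transcription factors that make and maintain skeletal muscle, together with myostatin, the secreted protein that limits its growth. They comprised the 4 myogenic regulatory factors Myod1, Myf5, Myog and Myf6, the MEF2 factors Mef2a, Mef2c and Mef2d, the satellite cell factor Pax7, and Mstn. Members were taken by name, as every non-control probe whose gene name in the scanner files was one of these 9, out of 34650 gene names on the array. They were represented by 13 probes, 3 each for Mef2a and Mef2d and 1 for each other gene. The tissue was gastrocnemius (calf) muscle from 3 wild-type (WT) and 3 Eif6+/- (Het) mice. Het mice retain 1 working allele of Eif6, which encodes an initiation factor of translation. By the study's methods, both genotypes were young male C57BL6 littermates of 8 to 16 weeks. The methods name no treatment of these mice and no restriction of the mutation to muscle. Each mouse was profiled as total RNA of the whole muscle and as RNA from sucrose gradient fractions, pooled for polysomes (at least 2 ribosomes per transcript), and from the monosome fraction for some mice. Each genotype had 3 whole-muscle and 3 polysome arrays, and 2 monosome arrays (WT mice 1 and 2, Het mice 1 and 3), 16 in all.

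In the embryo and in regenerating muscle, Pax7 marks the resident stem cells (satellite cells) of the fibre, Myf5 and Myod1 commit cells to the muscle lineage, and Myog and Myf6 act in differentiation and in mature fibres. The MEF2 proteins bind DNA beside these basic helix-loop-helix (bHLH) factors at muscle genes. Myostatin is made by the fibres themselves and signals through activin type II receptors and SMAD2 and SMAD3. Whole gastrocnemius holds fibres, satellite cells and other cells together, so that fewer cells of a type and less RNA per cell cannot be told apart in any value below.

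The probes on which the results turn are shown by their first 30 of 60 bases, with no part in capitals, because each value is the signal at 1 such short stretch of a transcript. Positions are on mouse build mm9, as in the scanner files.
Mstn, chr1:53124482-53124541, plus strand: tcacaaaaaaggtgactgcttctatttcag
Myog, chr1:136188874-136188933, plus strand: atcttgggaaccttccagtgctttgtgtat
Myod1, chr7:53633956-53634015, plus strand: ttttgttgttgttgttgtagtccttcagtt
Myf6, chr10:106930237-106930296, minus strand: tttaaaaagaaacttctcaccacctcaagt
Mef2c, chr13:83772788-83775025, plus strand: agaggaatagtatgtctcctggtgtaacac
The Mef2c coordinates span more than the probe's own length, so that probe lies across a splice junction. Myf5 and Myf6 are neighbours on chromosome 10 (Myf5 probe at 106919974 to 106920033). No 2 member probes of different genes shared a run of more than 9 bases.

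Signals are log2 values of the background-subtracted scanner signal, quantile normalized. The 12 arrays of whole muscle and polysomes were normalized together, and all 16 where monosomes enter. Each gene is given by its brightest probe unless another is named. Levels are compared only within a probe. The genes fell into 3 classes by detection, the scanner software's call that a spot is well above background. Myf6, Mef2a, Mef2c and Mef2d were detected on all 16 arrays and Mstn on 14. Myog was detected on 10 arrays, Myod1 on 9 and Pax7 on 7. Myf5 was detected on none, although it was spotted 10 times per array and none of its 160 spots passed the call. Its 16 values lay between 1.60 and 2.42, and it was never tested.

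**Figure D1:**
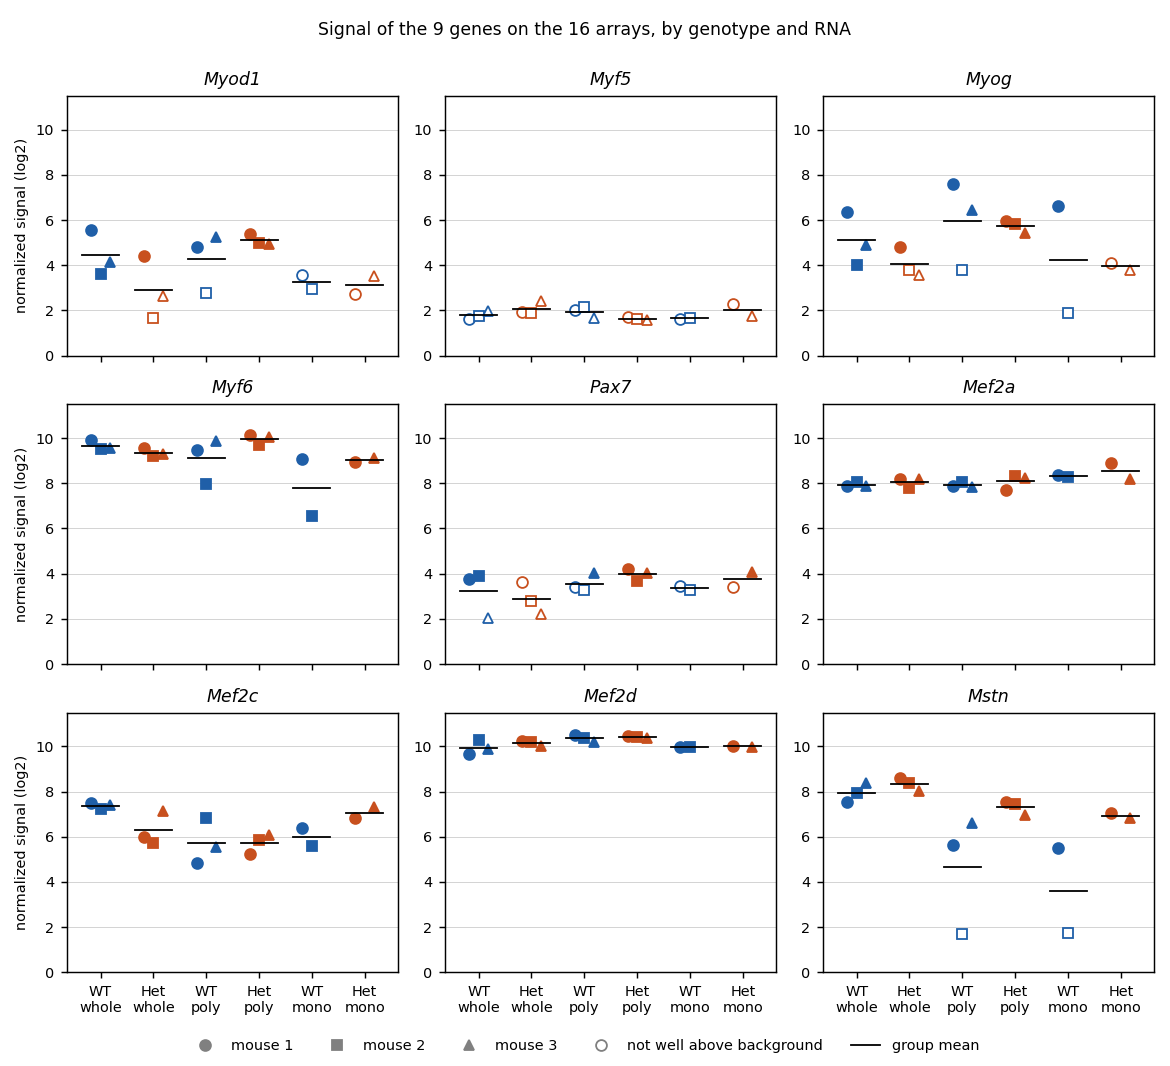
Signal of the brightest probe of each gene (log2, all 16 arrays normalized together, y axis) by genotype and RNA kind (x axis), with 1 symbol per mouse, open where the spot was not well above background, and a bar at the group mean. Mef2a and Mef2d were nearly level over the groups, Myf5 was open on every array, and Mstn had its 2 lowest values, 1.70 and 1.74, in polysomes and monosomes of WT mouse 2.

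The arrays were not of equal quality. Their brightness (75th percentile of the processed signal) ran from 12.7 to 150 scanner units, and Het whole-muscle arrays (13.5 to 33.0) lay below the WT ones (42.3 to 150). In polysomes the Het arrays (63.1 to 106) lay mostly above the WT ones (24.1 to 66.1). Brightness thus differed between genotypes in both RNA kinds, in opposite directions, and enters polysome minus whole-muscle differences from both sides. For 1200 transcripts with 2 probes at least 500 bases apart, the median 5′ minus 3′ log2 signal was -1.35 to -0.79 on 14 arrays, but 0.59 on WT polysome 2 and 0.81 on WT monosome 2, both from WT mouse 2. For many results the value without that mouse is also given. The targeted gene read lower in every Het array than in any WT array of the same RNA kind. The brighter Eif6 probe read 9.26 to 9.95 in WT and 8.51 to 8.70 in Het whole muscle, a difference of -0.92 ± 0.25 (SE; limma, adjusted p = 0.36). All 9 fast-fibre markers were detected on every array.

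By their brightest probes, polysome and whole-muscle RNA differed for 3 of the 8 members tested. Mef2d was called as well by the most 5′ of its probes (1.09 ± 0.26, SE, limma, adjusted p = 0.0229), though not by its brightest. Relative to the whole muscle of the same mouse, Myog RNA was higher in polysomes, and Mstn and Mef2c RNA was lower (limma on the 6 paired differences, adjusted p under 0.05). Of all tested probes, 25.3% were called in this comparison, so that calls were common here and 3 of 8 does not set the members apart. At the study's own threshold, an absolute log2 difference above 1 with an unadjusted p under 0.05, 12.8% of probes passed, as did 4 members, the same 3 and Myod1.

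Mstn was lower in the polysomes of 6 of 6 mice. Its whole-muscle level was 7.83, 8.23 and 8.69 in WT mice 1 to 3 and 8.89, 8.68 and 8.34 in Het mice 1 to 3. Its polysome level was 5.90, 1.75 and 6.88 in WT and 7.85, 7.76 and 7.28 in Het. Within each genotype, whole-muscle and polysome values did not overlap, and the value of WT mouse 2 in polysomes, not above background, stood far below the rest. The polysome minus whole-muscle difference was -2.21 ± 0.59 (SE, n = 6, adjusted p = 0.0342), and the exact permutation test over signs gave the smallest p it can reach with 6 mice, 0.0312. Without WT mouse 2, the difference was -1.44 ± 0.12 (adjusted p = 0.00224). The 3 Het mice lay close together, from -1.06 to -0.93, whereas WT mice 1 and 3 were at -1.93 and -1.80.

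Myog, which drives the fusion and differentiation of myoblasts, showed the reverse. Its whole-muscle level was 6.64, 4.23 and 5.14 in WT mice 1 to 3 and 5.05, 3.99 and 3.76 in Het mice 1 to 3. Its polysome level was 7.89, 3.98 and 6.73 in WT and 6.23, 6.08 and 5.67 in Het. Polysome signal was higher in 5 of 6 mice, with WT mouse 2 the exception at -0.26, its polysome value not above background. The mean difference was 1.29 ± 0.27 (SE, n = 6, adjusted p = 0.0153), and 1.57 ± 0.18 (adjusted p = 0.00437) without WT mouse 2. In whole muscle, Myog was detected in 4 of 6 mice, and in Het in mouse 1 only.

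Mef2c, the MEF2 member known for its part in fibre-type and sarcomere gene expression, was lower in polysomes in 5 of 6 mice. Whole-muscle values were 7.77, 7.53 and 7.70 in WT mice 1 to 3 and 6.26, 5.99 and 7.45 in Het mice 1 to 3. Polysome values were 5.07, 7.10 and 5.78 in WT and 5.50, 6.11 and 6.36 in Het. WT mouse 2 again stood apart, here with the highest polysome value. The mean difference was -1.13 ± 0.31 (SE, n = 6, adjusted p = 0.038), and -1.44 ± 0.23 (adjusted p = 0.00956) without that mouse.

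The calls of Mstn, Myog and Mef2c depended on single mice and on settings. All 3 were lost without Het mouse 3 (adjusted p = 0.0935, 0.0578 and 0.121), without the filter on dim probes, with brightness as a term and by the methods' t-test after adjustment. Without WT mouse 3, Mstn stayed called (adjusted p = 0.0462) and Myog (0.0523) and Mef2c (0.113) did not. Without Het mouse 1 only Myog stayed called (adjusted p = 0.0339), against 0.0849 for Mstn and 0.106 for Mef2c. Mstn was also lost without Het mouse 2 (adjusted p = 0.0723), and Mef2c without WT mouse 1 (adjusted p = 0.0888). The sign of each difference was the same under every alternative run.

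The other MEF2 genes gave small mean differences between polysomes and whole muscle by their brightest probes. Mef2a gave 0.00 ± 0.17 (SE, adjusted p = 0.998), with the 6 mice between -0.48 and 0.54. Mef2d was higher in polysomes in 6 of 6 mice, by 0.08 to 0.85, with a mean of 0.33 ± 0.16 (adjusted p = 0.166). Myf6, the most abundant of the myogenic factors in adult muscle, gave 0.03 ± 0.25 (adjusted p = 0.95), with 4 of 6 mice above 0. Myod1 was higher in polysomes in 4 of 6 mice, by a mean of 1.07 ± 0.39 (adjusted p = 0.0873). Pax7 was detected on 2 of the 6 whole-muscle arrays, neither of them Het, and no difference is given for it (adjusted p = 0.19). Myf6 gave, without WT mouse 2, 0.28 ± 0.16 (adjusted p = 0.237).

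**Figure D2:**
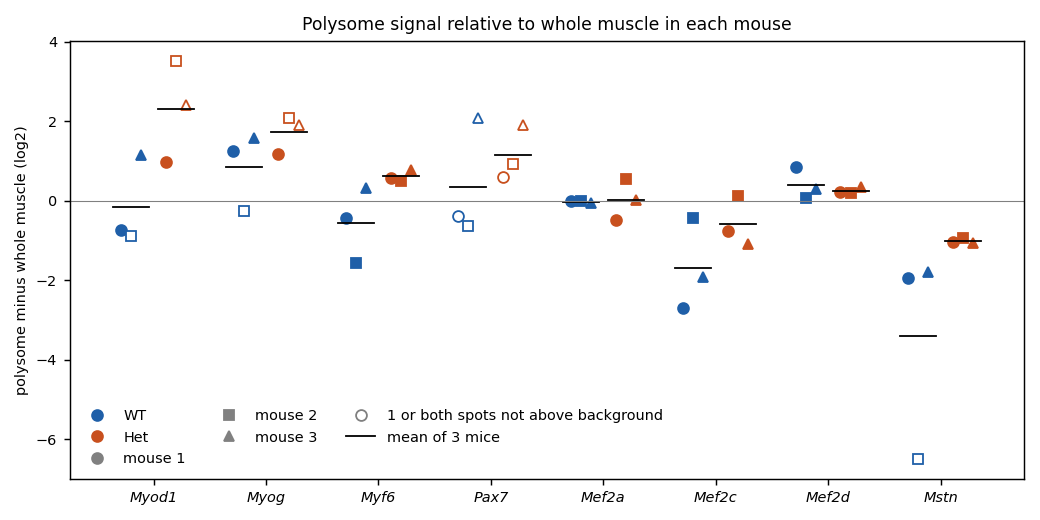
Polysome minus whole-muscle signal (log2, y axis) of each mouse for the 8 genes tested (x axis), with WT in blue, Het in orange, 1 symbol per mouse, open where 1 or both spots were not above background, and a bar at the mean of 3 mice. Mstn lay below 0 in all 6 mice and reached -6.49 in WT mouse 2, and the 3 Het values of Mstn (-1.06 to -0.93) and Myf6 (0.50 to 0.77) each formed a tight group.

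The choice of probe mattered for Mef2a and Mef2d. The brightest Mef2a probe starts at base 2075 of its transcript, and the other 2 at bases 2899 and 5077. The most distal gave a polysome minus whole-muscle difference of -1.20 ± 0.38 (SE, adjusted p = 0.0582, lower in 6 of 6 mice), against 0.00 for the brightest. The middle one gave 0.39 ± 0.51 (adjusted p = 0.599) and was higher in polysomes in 5 of 6 mice. In WT mouse 2 the most distal probe stood at -3.86 and the middle one at -2.81, and without that mouse they gave -0.74 ± 0.16 (adjusted p = 0.022) and 0.96 ± 0.31 (adjusted p = 0.0665). Of the 2 further Mef2d probes, the most 5′ one, which crosses a splice junction, was higher in polysomes in 6 of 6 mice by 1.09 ± 0.26 (adjusted p = 0.0229), and the middle one gave -0.53 ± 0.23 (adjusted p = 0.128). The 3 probes of each gene thus differed in size and in sign.

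**Figure D3:**
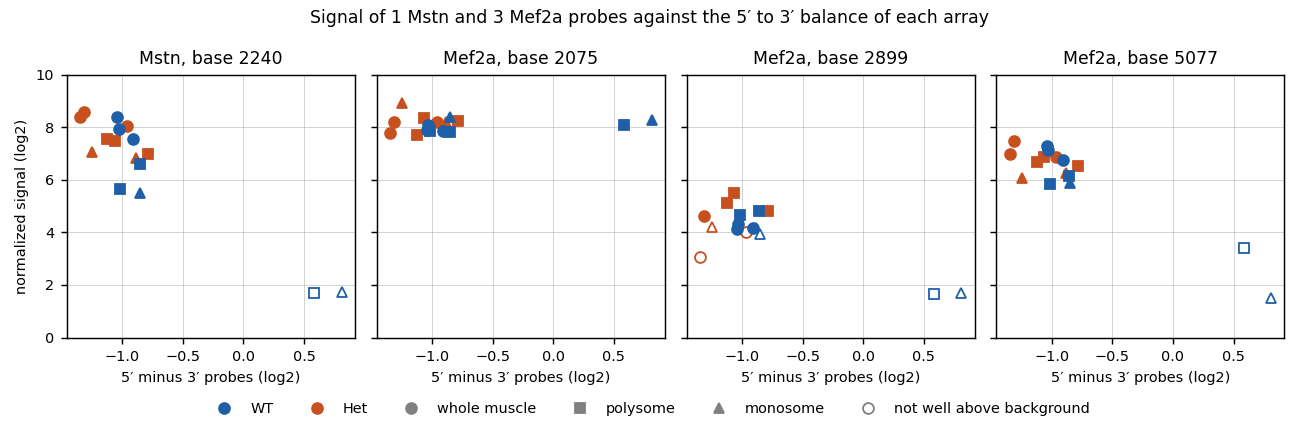
Signal of the Mstn probe and the 3 Mef2a probes (log2, all 16 arrays normalized together, y axis) against the median 5′ minus 3′ signal of each array (log2, x axis), titled by the first base of the probe in its transcript; colour gives genotype, shape the RNA kind, and open symbols spots not well above background. On the 2 arrays right of 0, both of WT mouse 2, the Mstn probe and the 2 distal Mef2a probes read 1.49 to 3.39, while the most 5′ Mef2a probe read 8.06 and 8.27, within the 7.71 to 8.92 of the other arrays. Probes not shown did not all follow position. The brightest Mef2d probe, at base 5169, read 10.19 to 10.53 in WT polysomes and 9.96 in both WT monosome arrays. Myog (base 1228) and Myf6 (base 867) read low in the monosomes of WT mouse 2, at 1.90 and 6.53. The cause was not tested.

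The partners and targets of these factors were described by 5 lists of 111 genes, 95 of them tested. Of the 16 tested partners and inhibitors of the bHLH factors, 5 rose in polysomes over whole muscle and 1 fell (Zeb1, a repressor that binds the same DNA motif, -0.76 ± 0.17). The E proteins, with which the myogenic factors pair to bind DNA, were among those that rose, Tcf12 by 1.36 ± 0.25 (adjusted p = 0.00979), Tcf3 by 1.16 ± 0.21 (adjusted p = 0.00891) and Tcf4 by 0.77 ± 0.20 (adjusted p = 0.0291). The median of this list was 0.48, against 0.12 over all 15564 genes tested by their brightest probe. Of 16 regulators of MEF2, 4 rose and none fell, among them Hdac7, a class II deacetylase that holds MEF2 silent, by 0.66 ± 0.19, and the cofactors Ppargc1a and Vgll2 by 0.58 ± 0.16 and 0.55 ± 0.16. The median of the MEF2 regulators was 0.27, and that of the upstream factors 0.12.

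Of 22 genes of the myostatin pathway, 3 rose and 1 fell. Those that rose encode extracellular binding proteins, namely Dcn (decorin) by 1.23 ± 0.20 (adjusted p = 0.00688), Fst (follistatin, the myostatin antagonist) by 1.15 ± 0.22 (adjusted p = 0.0114) and Fstl1 by 0.80 ± 0.23. Acvr2a, an activin type II receptor, fell by 0.67 on the log2 scale (adjusted p = 0.0498). Ski, a repressor of SMAD signalling, passed the study's threshold at 1.48 ± 0.46 (adjusted p = 0.0561), detected on 5 of 6 polysome arrays and 1 of 6 whole-muscle arrays. The pathway's median was 0.35. Of 26 target genes of the factors, 6 rose and 2 fell, with a median of 0.14. Des (desmin) and Mylpf (fast myosin light chain) fell by 1.40 and 1.30 on the log2 scale. Slc2a4, the glucose transporter GLUT4, rose by 0.87 ± 0.14, Klhl40, a stabilizer of sarcomere proteins, by 0.84 ± 0.20, and Cdkn1a, the cell-cycle inhibitor p21, by 0.80 ± 0.19. In all 5 lists, 19 genes rose and 4 fell, against 2224 and 1732 of all 15564 genes.

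Markers of other cell types also rose in polysomes over whole muscle, with none called lower in the lists of smooth muscle, adipocytes, fibroblasts and endothelial cells. Those that rose were 5 of 6 for smooth muscle and pericytes (median 1.29), 4 of 6 for adipocytes (median 0.80), 4 of 8 for fibroblasts (median 0.65), Dcn among them, and 3 of 7 for endothelial cells (median 0.60). The mean signal of the smooth muscle list was 7.37 to 8.17 in whole muscle and 8.34 to 8.96 in polysomes. Of the fast-fibre markers, 2 of 9 fell and none rose (median -0.47), and of the slow-fibre markers 3 of 7 rose and none fell (median 0.45). Among macrophage and other immune markers 1 of 8 rose (median -0.04). Of these lists, Tcf21 and Lep were above background on no array. The part of these cell types in the values of the members and of their partners was not tested.

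The genotypes were then compared within each RNA kind. In whole muscle no member was called (limma, adjusted p under 0.05), beside 0.0101% of all probes. None passed the study's threshold either, beside 5.63%. At an unadjusted p under 0.05, 1675 of 19806 probes were found but no member by its brightest probe. Mef2c came closest, with all 3 Het values (6.26, 5.99 and 7.45) below all 3 WT values (7.53 to 7.77), a difference of -1.10 ± 0.50 (SE, adjusted p = 0.591; exact permutation p = 0.1, the smallest that 3 against 3 allows). Myod1 gave the largest difference, -1.62 ± 0.81 (adjusted p = 0.625). It was detected in WT mice 1 to 3 at 5.80, 3.81 and 4.37, and in Het in mouse 1 only, at 4.64, with 1.71 and 2.77 in mice 2 and 3. The whole-muscle arrays of Het mice 2 and 3 were the dimmest (75th percentile 13.5 and 19.1, against 33.0 for Het mouse 1). Missing calls on them cannot be told apart from dim arrays. Groups overlapped for Myod1, as they did for Myog, which averaged 5.34 ± 1.22 (SD, n = 3) in WT and 4.27 ± 0.69 in Het. Pax7 was detected in 2 WT mice and in no Het mouse, and the Het bound lay above the WT mean, so no fold is given. When WT mouse 2 was left out, the differences were -2.04 for Myod1, -1.62 for Myog (from -1.07) and -1.17 for Mef2c, at unadjusted p of 0.0231, 0.0161 and 0.0286 and adjusted p of 0.252, 0.228 and 0.272, beside 2976 probes at an unadjusted p under 0.05.

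For the other detected members, whole-muscle means by the brightest probe were as follows. Myf6 averaged 9.96 ± 0.22 (SD, n = 3) in WT and 9.65 ± 0.17 in Het. Mef2a averaged 8.24 ± 0.11 and 8.36 ± 0.23, and Mef2d 10.24 ± 0.31 and 10.45 ± 0.13. The further Mef2d probes went the other way, the most 5′ one by -0.57 ± 0.34 (SE, adjusted p = 0.695) and the middle one by -0.76 ± 0.33 (unadjusted p = 0.045, adjusted p = 0.583). Mstn averaged 8.25 ± 0.43 in WT and 8.64 ± 0.28 in Het, a difference of 0.39 ± 0.99 (SE, adjusted p = 0.987). The standard error of Mstn pools the spread of all 4 groups of the fit, WT polysomes included.

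In polysomes no member was called, and no probe at all (0%, with 3004 probes at an unadjusted p under 0.05). At the study's threshold 5.74% of probes passed, and Mstn was the only member by its brightest probe. Mstn was higher in Het polysomes, with all 3 Het values (7.28 to 7.85) above all 3 WT values (1.75 to 6.88). The means were 4.84 ± 2.73 (SD, n = 3) in WT and 7.63 ± 0.31 in Het, a difference of 2.78 ± 0.99 (SE, unadjusted p = 0.0165, adjusted p = 0.272; exact permutation p = 0.1). Without WT mouse 2, the groups still did not overlap, but the difference was 1.23. The 2 distal Mef2a probes also had all Het values above all WT values, at 1.61 ± 0.59 (SE, unadjusted p = 0.0195, adjusted p = 0.277) for the most distal, while the brightest Mef2a probe gave 0.17 ± 0.22. The most distal, without WT mouse 2, gave 0.71 (adjusted p = 0.316) and the middle one 0.41.

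With all mice included, the Myog difference in polysomes was -0.20 ± 0.87 (SE, adjusted p = 0.913). Without WT mouse 2, both WT values (7.89 and 6.73) lay above all 3 Het values (5.67 to 6.23), and the difference was -1.31 (unadjusted p = 0.0402, adjusted p = 0.365). Myf6 averaged 9.40 ± 1.01 (SD, n = 3) in WT and 10.26 ± 0.22 in Het, with overlap. Myod1 averaged 4.50 ± 1.39 in WT and 5.34 ± 0.24 in Het. When WT mouse 2 was left out, the difference moved from 0.86 to 0.28 for Myf6 and from 0.85 to 0.06 for Myod1. For Mef2c the means were 5.98 ± 1.03 and 5.99 ± 0.44, with a difference of 0.57 (adjusted p = 0.652) without that mouse, and for Mef2d 10.65 ± 0.17 and 10.70 ± 0.04. Pax7, detected in all 3 Het polysome samples and in 1 of 3 WT samples, averaged 4.17 ± 0.29 and 3.75 ± 0.41.

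**Figure D4:**
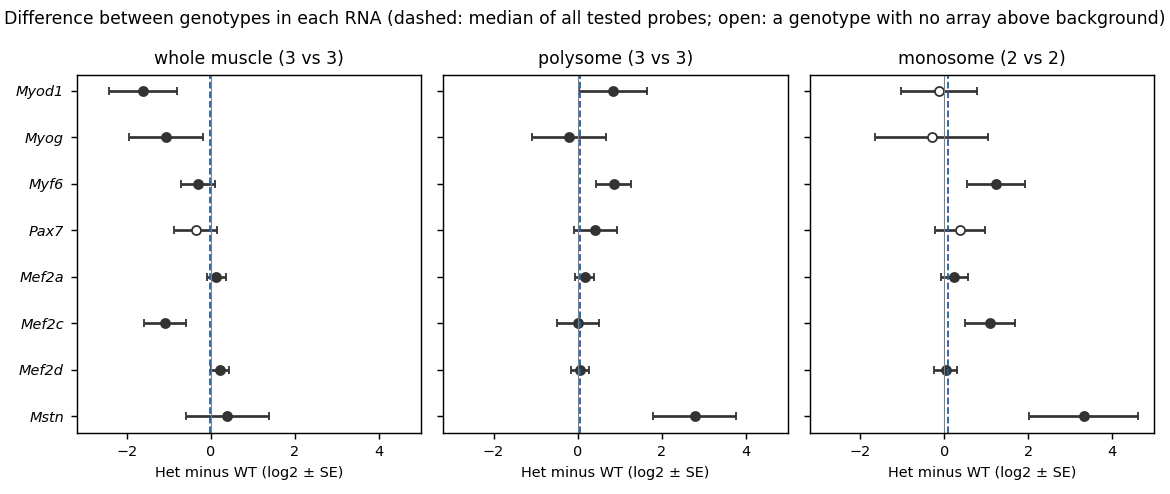
Het minus WT difference (log2, x axis) of the 8 genes tested (y axis) in whole muscle, polysomes and monosomes, with bars of 1 SE from the limma fit, open points where a genotype had no array above background, and a dashed line at the median of all tested probes. Mstn lay furthest right in polysomes (2.78) and monosomes (3.32), while Mef2a and Mef2d lay within 0.24 of 0 in all 3 panels; no difference had an adjusted p under 0.05.

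In monosomes, with 2 mice per genotype, no member was called, beside 0.499% of probes. At the study's threshold, which 28.6% of probes passed, Mstn was again the only member by its brightest probe. It read 5.48 and 1.74 in WT mice 1 and 2, the second not above background, and 7.04 and 6.83 in Het mice 1 and 3. The difference was 3.32 ± 1.30 (SE, adjusted p = 0.116; exact permutation p = 0.333, the smallest that 2 against 2 allows). Without WT mouse 2 it was 1.45 and without WT mouse 1 it was 5.19, each time with 1 WT array left. Mef2c read 6.38 and 5.60 in WT and 6.84 and 7.30 in Het, 1.08 ± 0.60 apart (adjusted p = 0.208), and 0.69 apart without WT mouse 2. The most 5′ Mef2d probe, by contrast, was lower in Het, at 7.52 and 7.02 in WT and 5.03 and 5.79 in Het, a difference of -1.86 ± 0.44 (adjusted p = 0.0706). Myf6 read 9.07 and 6.53 in WT, and 8.95 and 9.10 in Het. Myod1 was not above background on any of the 4 monosome arrays, and Myog only on that of WT mouse 1. Myog read 6.61 and 1.90 in WT mice 1 and 2 and 4.09 and 3.81 in Het mice 1 and 3, with overlap (adjusted p = 0.881). No Myog difference is given, since neither Het value was above background. By the background bound, Myog was at least 1.15-fold brighter in WT with all mice. The value of WT mouse 1, 6.61, lay above both Het values. When WT mouse 2 was left out, the monosome difference moved from 1.22 to -0.05 for Myf6. It moved from 2.48 to 0.28 for the most distal Mef2a probe, and WT then stood on 1 array.

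Among the genes around the members, 0 of 95 were called between genotypes in whole muscle, polysomes or monosomes, where limma found 2, 0 and 101 of all probes at an adjusted p under 0.05. At the study's threshold 3 were lower and none higher in Het whole muscle, 4 were higher and none lower in Het polysomes, and 16 were higher and 6 lower in Het monosomes. Over all 15564 genes, 456 were lower and 329 higher in whole muscle, and 603 higher and 245 lower in polysomes. In monosomes 2597 of 15875 genes were higher and 1884 lower. The 3 were Smad7, an inhibitor of SMAD signalling (-1.54 ± 0.67, adjusted p = 0.582, detected in 1 of 3 Het mice), the ubiquitin ligase Smurf1, not above background in Het, and Xirp1, an actin-binding protein of muscle (-1.50 ± 0.58, adjusted p = 0.53). The 4 were Ppp3cb (calcineurin, 1.31 ± 0.45, adjusted p = 0.27) and Camk2g (1.01 ± 0.35, adjusted p = 0.27), both enzymes that activate MEF2, Dach1 (1.45 ± 0.62, adjusted p = 0.311), and Chrne, the adult acetylcholine receptor subunit (1.69 ± 0.73, adjusted p = 0.313). The list medians ran from -0.22 to 0.11 in whole muscle and from 0.14 to 0.42 in polysomes, where the medians of all genes were -0.01 and 0.03.

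Polysome loading, taken for each mouse as polysome minus whole-muscle signal, was compared between genotypes last. It shares its arrays with the comparisons above. No member was called, and no probe at all (0%, with 3341 at an unadjusted p under 0.05). At the study's threshold 13.9% of probes passed, and of the members Myod1 and Myf6. For Myod1, loading was -0.74, -0.89 and 1.15 in WT mice 1 to 3 and 0.98, 3.52 and 2.40 in Het mice 1 to 3, with overlap. The means of -0.16 ± 1.14 (SD, n = 3) and 2.30 ± 1.28 differed by 2.46 ± 0.78 (SE, adjusted p = 0.195; exact permutation p = 0.2). In Het mice 2 and 3 the whole-muscle signal in this ratio was not above background. For Myf6 it was -0.44, -1.57 and 0.32 in WT and 0.58, 0.50 and 0.77 in Het, without overlap, a difference of 1.17 ± 0.49 (SE, adjusted p = 0.289; exact permutation p = 0.1), and 0.67 without WT mouse 2.

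Mstn loading did not overlap between genotypes either. All Het mice (-1.06 to -0.93) lay above all WT mice (-6.49 to -1.80), with a difference of 2.40 ± 1.18 (SE, adjusted p = 0.36), and 0.86 without WT mouse 2. No mouse had its whole-muscle and polysome arrays on the same slide, so that a value within 1 slide is an unpaired contrast of different mice, with 1 array in some groups. Such contrasts gave 3.76 for Myod1 and 4.20 for Mstn within slide 1, and -0.15 and -0.22 within slide 2. Mef2c loading averaged -1.68 ± 1.16 (SD, n = 3) in WT and -0.58 ± 0.63 in Het, Myog 0.86 ± 0.98 and 1.72 ± 0.48, Mef2d 0.41 ± 0.40 and 0.26 ± 0.09, and Mef2a -0.02 ± 0.03 and 0.03 ± 0.51. The loading difference without WT mouse 2 was 1.73 for Mef2c and 0.31 for Myog. The Myog ratios of WT mouse 2 and of Het mice 2 and 3 each rest on an array where Myog was not above background. No loading is given for Pax7, which no Het whole-muscle array had above background. Of the 95 surrounding genes, 8 were higher and 3 lower in Het loading at the study's threshold, beside 910 higher and 1213 lower of all 15564 genes. Among them were the inhibitors Id2 (1.28 ± 0.50, adjusted p = 0.265) and Id3 (1.20 ± 0.37, adjusted p = 0.189), which sequester E proteins, and Bmp1, a protease that frees latent myostatin (-1.46 ± 0.30, adjusted p = 0.109).

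Monosome RNA was set against the other kinds in the 4 mice that had it. No member was called in monosomes against whole muscle, where no probe was (0%, with 4639 at an unadjusted p under 0.05), nor in polysomes against monosomes, where no probe was (0%, with 8329). The study's threshold passed 18.1% and 22% of probes. Mstn was lower in monosomes than in whole muscle in 4 of 4 mice, with differences of -2.05 and -6.19 in WT mice 1 and 2 and -1.55 and -1.21 in Het mice 1 and 3 (mean -2.75 ± 0.72, SE, adjusted p = 0.179). Without WT mouse 2, whose monosome value was not above background, the mean was -1.72 ± 0.18 (adjusted p = 0.113). Between polysomes and monosomes the Mstn difference was small (0.20 ± 0.22, SE, adjusted p = 0.501; mice from -0.04 to 0.52). Myog was higher in polysomes than in monosomes in 4 of 4 mice, by 0.99 to 1.88 (mean 1.59 ± 0.25, SE, adjusted p = 0.0551; exact permutation p = 0.125, the smallest for 4 mice), although only 1 monosome array measured it. Myf6 was higher by 0.42 to 1.42 (mean 0.997 ± 0.26, SE, adjusted p = 0.071). Myod1, not above background on any monosome array, was at least 1.19-fold brighter in polysomes by the background bound (adjusted p = 0.079). It was higher in polysomes in 3 of 4 mice, and in WT mouse 2 neither spot was above background. Mef2d was higher in 4 of 4 mice by 0.40 to 0.57 (mean 0.45 ± 0.21, SE, adjusted p = 0.166). When WT mouse 2 was left out, 4 members were called in this comparison, beside 33.6% of all probes, Mef2c at -1.47 ± 0.18 (adjusted p = 0.0285), against -0.78 with all mice, Myog at 1.36 ± 0.17 (adjusted p = 0.0285), Myf6 at 0.75 ± 0.16 (adjusted p = 0.0442) and Myod1 (adjusted p = 0.0393).

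Of the other 11 satellite cell markers on the array, 8 were tested, and their mean signal was 6.76 to 7.12 in WT and 6.63 to 6.98 in Het whole muscle. Cdh15 and Itga7 were detected on all 16 arrays, whereas Calcr, a marker of quiescent satellite cells, was detected on 1. The only gene of that list called between genotypes was Sdc4 (syndecan-4), higher in Het whole muscle by 2.24 ± 0.24 (SE, adjusted p = 0.0325). That call depended on settings. No probe was called in this contrast under normexp, in the authors' table, with the stricter filter, with slide or brightness as a term, or with the replicate block. The same held without WT mouse 1, WT mouse 3, Het mouse 2 or Het mouse 3. The 8 tested markers had a median difference of -0.22 in whole muscle, 2 of them above 0. Ncam1 passed the study's threshold in the other direction, at -1.91 ± 0.83 (adjusted p = 0.579, detected in 1 of 3 Het and 3 of 3 WT mice). Blood markers were lower in Het polysomes, with a median of -1.20 over 6 genes, 4 of them past the study's threshold and none called (adjusted p under 0.05). Macrophage markers had a median of -0.74 in whole muscle and -0.79 in polysomes over 8 genes. Their part in the members' values was not tested.

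For the 4 members above background on all 12 whole-muscle and polysome arrays, the genes of most similar pattern among 11475 probes were found by Pearson's r over the 12 arrays, which share libraries and 4 group levels. For Myf6 they were Sdc2 (r = 0.95), Acat1 (0.94) and Cpq (0.93). For Mef2c they were Cltc (0.96), Mbd2 (0.95) and Bud31 (0.95), for Mef2d Med16 (0.92), Pik3r6 (0.90) and Rnf8 (0.90), and for Mef2a Pot1a (0.91), a lincRNA probe (0.90) and Dmtn (0.87). Among the members themselves, Mef2c and Mef2d ran opposite to each other (r = -0.74), and the other 5 pairs lay between -0.24 and 0.25.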

How the data were processed

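RNA of whole muscle, polysomes and monosomes was labelled with Cy3 and hybridised to 1-colour Agilent SurePrint G3 mouse arrays. Feature Extraction 11.0.1.1, run by the authors, gave the deposited spot intensities, and per the file headers the processed intensity is background-subtracted, with arrays not scaled to each other. The authors' table of log2 values, quantile normalized without background subtraction by its values, served as an alternative. Groups came from the sample labels, and each comparison and its design are given with its values.

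Processed signals were log2 transformed, spots marked non-uniform or population outlier were dropped, spots of 1 probe were averaged, and arrays were quantile normalized (12 whole-muscle and polysome arrays, or all 16). Probes were tested where 1 group or more had the probe well above background throughout, which left 19806 and 20244 probes. Genotypes were compared with limma 3.58.1 in R 4.3.3 (lmFit, eBayes, Benjamini-Hochberg over all probes), and RNA kinds and loading with limma on differences within mice, since by the design description all RNA kinds were isolated from each mouse. Within a genotype, whole-muscle and polysome arrays of 1 mouse deviated together with r of 0.06 to 0.48 over 6 pairs. Those of different mice gave r of -0.36 to 0.23, so the ranges overlapped. Same-numbered WT and Het mice are not paired. Nothing in the labels says how RNA extraction was batched. In the genotype comparisons within an RNA kind, the spread was pooled over all groups of the fit. That fit had no term for the mouse, so arrays of 1 mouse counted as separate. With 1 array per mouse and RNA kind, the spread between mice includes that of array quality. The number of arrays limits the precision. Exact permutation tests were 2-sided.

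A gene stood by its probe of highest mean over 16 arrays. Beside the members, up to 2 genes per list and direction were named if past an absolute log2 difference of 1 and an unadjusted p of 0.05, the study's threshold. Genes named outside this rule (Zeb1, Tcf4, Hdac7, Ppargc1a, Vgll2, Fst, Fstl1, Acvr2a, Slc2a4, Klhl40, Cdkn1a), Sdc4, and the markers Cdh15, Itga7 and Calcr were chosen after their values were seen. The call of 1 upstream factor between polysomes and whole muscle is not reported here. The members and lists were chosen with earlier results of these data known. Where no array of a group was above background, with all arrays included, the text gives the fold as a bound or not at all. The plots of differences still draw such genes, with open symbols. Alternatives were 75th percentile scaling, normexp background correction (offset 50), the authors' table, no filter or a stricter one, slide as a term or alone, brightness as a term, the methods' t-test, a replicate block, and leaving out each mouse. Values of the further Mef2a and Mef2d probes, with and without WT mouse 2, were added after the data were seen. Figures were drawn with matplotlib.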

Additional observations from a re-analysis of the deposited data

How the results depend on the processing

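The count of members called between polysomes and whole muscle was 3 with all data. It was 1 when every array had to be above background, where Mef2c was called (beside 41.1% of probes) and Mstn and Myog were not tested. It fell to 0 without the filter (5.44% of 55558 probes), with brightness as a term (12.3%), and by the methods' t-test after adjustment (21.5%). Within 1 slide some groups had 1 array, and no count is given for this comparison. The count was 0 to 3 when 1 mouse was left out (0 without Het mouse 3, beside 11.7% of probes, and 1 without WT mouse 3, 15.6%, or Het mouse 1, 12.1%). Polysomes against monosomes, with none called, gave 2 under 75th percentile scaling (beside 27.1% of all probes), 3 under normexp (24.9%), 2 in the authors' table (26.2%), 1 above background on every array (51.5%), 3 within slide 2 (39.4%), 1 by the methods' t-test (10.8%), and 0 to 4 with 1 mouse left out (4 without WT mouse 2, 33.6%, and 2 without WT mouse 1, 49.8%). Slide as a term gave the same 4, since only WT mouse 2 had its polysome and monosome arrays on different slides, so that the term amounts to leaving out that mouse. Monosomes against whole muscle gave 3 within slide 2 (47.6%), 1 without the replicate block (Mstn, adjusted p = 0.0292; 24.9%), and 0 to 2 with 1 mouse left out (2 without WT mouse 1, 36.8%). Monosomes between genotypes gave 3 within slide 2 (40.7%) and 0 to 2 with 1 mouse left out (2 without WT mouse 1, 53.2%). At the study's threshold the counts were 1 (polysomes), 1 (monosomes), 2 (loading), 1 (monosomes against whole muscle) and 2 (polysomes against monosomes). The loading difference of Myod1 was -0.15 within slide 2 and -0.46 with brightness as a term, and that of Mstn -0.22 within slide 2, opposite to the values over all arrays. No mouse had its whole-muscle and polysome arrays on 1 slide, so the slide values are unpaired contrasts of different mice, with 1 array in some groups. The cause was not tested.

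With the mouse number as a replicate block between genotypes, no member was called, and Mstn in polysomes kept an adjusted p of 0.308. Without the replicate block, 2 members were called between polysomes and whole muscle, Myog no longer (adjusted p = 0.157). Of 932 recomputed member differences, 72 had the opposite sign, 39 of them with brightness as a term or within 1 slide. In the 3 comparisons between genotypes and in loading, signal over background limits Myod1, Myog and Pax7, which were not above background on 7, 6 and 9 of 16 arrays.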
